A study of Mus musculus with 6 samples.

Results

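The replication-dependent histone genes were followed in MA-10 cells, a steroid-producing line from a mouse Leydig cell tumour, after an siRNA against COUP-TFII. Members were the probe sets whose gene symbol in the deposited annotation begins with Hist1h, Hist2h, Hist3h or Hist4h. They numbered 71, with 66 different symbols, among 35556 probe sets in all and 26836 with a gene symbol. Of these, 5 belonged to the linker histone H1, 21 to H2A, 19 to H2B, 13 to H3 and 13 to H4. The cultures were 3 biological replicates given a control siRNA and 3 given an siRNA targeting COUP-TFII, and both groups were transfected for 48 h. COUP-TFII is the product of Nr2f2, a nuclear receptor with no known physiological ligand. All 6 cultures came from the same tumour line, so the comparison concerns a partial knockdown in dividing tumour cells and not Leydig cells of a testis. The siRNA sequences were not used here.

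Histone proteins package DNA: H2A, H2B, H3 and H4 form the core of the nucleosome, and H1 binds the linker DNA between cores. The genes of these replication-dependent histones lie in clusters, have no introns, and are transcribed mainly in S phase, when new DNA needs new nucleosomes. Their mRNAs usually end in a stem-loop bound by SLBP instead of a poly(A) tail, and they are degraded quickly when DNA synthesis stops. Many paralogs encode the same or almost the same protein, so short array probes can fit several genes at once.

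The probe sets reflect that similarity. The deposited annotation assigned 58 members to exactly 1 gene and 13 to several. Hist1h2ao, for example, shared each of its 2 probe sets with Hist1h2ah and Hist1h2ap, and the probe set of Hist1h2be was also assigned to the H1 gene Hist1h1e. Hist3h2a shared its probe set with Trim17, which is no histone gene. In all, 5 symbols had 2 probe sets each, Hist1h2ao among them. In 2 instances a pair of probe sets carried identical values on all 6 arrays, namely both Hist1h2bq sets and the sets of Hist1h4m and Hist1h4n. The members are therefore not 71 independent measurements. By the deposited chromosome entries, 56 lay on chromosome 13 (the Hist1 cluster), 11 on chromosome 3 (Hist2), 3 on chromosome 11 (Hist3) and 1, Hist4h4, on chromosome 6.

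Values are the deposited normalized log2 expression, on which a difference of 1 is a doubling, and array medians lay between 7.56 and 7.60. The targeted transcript Nr2f2 read 8.98, 8.97 and 9.19 in control and 8.25, 8.42 and 8.56 in COUP-TFII siRNA arrays, a fall by 0.63 (SE 0.09, limma adjusted p = 0.00802) to 64.4% of control. Of 6 measured Leydig cell markers, the summed level (mean of their log2 values per array) lay between 11.73 and 11.78 in control and between 11.46 and 11.49 in COUP-TFII siRNA arrays, and 4 of the 6 (Star, Cyp11a1, Lhcgr and Inha) were called lower, where 2.92% of all probe sets were. Of the other 2, Cyp17a1 differed by 0.34 (SE 0.13, adjusted p = 0.201) and Nr5a1 by -0.02 (SE 0.05). Of 6 macrophage markers, 5 lay below the array medians on every array, and Cd68 read 8.33 to 8.82. Of 5 endothelial markers, 4 lay below them, and Cdh5 read 11.48 to 11.74; 0 markers of either list were called.

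The promoters of the members were compared first, because the classes are controlled through different elements. RefSeq windows (GRCm38.p6, 250 bases before to 50 after each start) were found for 58 of the 66 symbols, in 59 windows. The upstream 150 bases are shown for the member with the smallest p in each class among those with exactly 1 window. Capitals mark every match, on either strand, to the letters CCAAT, the TATA box TATAAA, the octamer ATTTGCAT, the H1 box AAACACA or the nuclear receptor half-site AGGTCA.
Hist1h1t: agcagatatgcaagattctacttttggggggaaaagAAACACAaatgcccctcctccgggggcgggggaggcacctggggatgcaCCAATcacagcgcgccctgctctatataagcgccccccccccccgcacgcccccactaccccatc
Hist1h2ae: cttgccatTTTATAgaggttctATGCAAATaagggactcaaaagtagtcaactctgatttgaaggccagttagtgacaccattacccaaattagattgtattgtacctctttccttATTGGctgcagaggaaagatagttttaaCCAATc
Hist2h2bb: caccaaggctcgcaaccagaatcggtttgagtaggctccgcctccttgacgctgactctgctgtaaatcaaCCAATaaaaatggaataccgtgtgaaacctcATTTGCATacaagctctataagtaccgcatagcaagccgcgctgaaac
Hist1h3d: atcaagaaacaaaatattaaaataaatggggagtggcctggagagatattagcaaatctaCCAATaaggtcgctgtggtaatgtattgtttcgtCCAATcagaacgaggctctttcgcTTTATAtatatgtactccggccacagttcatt
Hist1h4j: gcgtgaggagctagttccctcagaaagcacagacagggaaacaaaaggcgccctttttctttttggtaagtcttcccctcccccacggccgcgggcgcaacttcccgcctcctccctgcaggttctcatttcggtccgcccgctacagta
These stretches lie at chr13:23695661-23695810 (Hist1h1t, plus strand), chr13:23571221-23571370 (Hist1h2ae, minus strand), chr3:96269550-96269699 (Hist2h2bb, plus strand), chr13:23575613-23575762 (Hist1h3d, plus strand) and chr13:21734884-21735033 (Hist1h4j, plus strand). Hist2h2bb carries an octamer in the forward direction and Hist1h2ae carries it reversed, while the Hist1h4j stretch holds none of the searched letters.

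Over all member windows, CCAAT occurred in 84.7%, against 37.4% of all 32851 promoter windows. It was present in every H1, H2A, H2B and H3 window and in 25% of the 12 H4 windows. The octamer, to which OCT1 (encoded by Pou2f1) binds in H2B promoters, occurred in 43.8% of H2B and 41.2% of H2A windows, in 0 windows of H1, H3 and H4, and in 1.74% of all windows. The H1 box occurred in 80% of the 5 H1 windows and 7.18% of all windows. TATAAA occurred in 57.6% of member windows and 13.6% of all. The half-site AGGTCA, of which COUP-TFII binds repeats, occurred in 3.39% of member windows and 16.3% of all windows. The direct repeat of that half-site with any 1 base between its copies occurred in 0 member windows and in 0.0396% of all. The octamer match is shared by divergent H2A and H2B genes whose windows overlap, and a match of letters does not show binding.

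After COUP-TFII siRNA, histone transcripts differed little and nearly all in 1 direction. Of the 71 members, 69 had a difference (COUP-TFII siRNA minus control) below 0, as did 43.7% of all 26836 probe sets tested. The median difference was -0.059 on the log2 scale, or 96% of control, where the median over all probe sets was 0.015. The range ran from -0.31 (Hist1h2ab) to 0.07 (Hist1h2ac). The limma fit over all probe sets called 1 member lower, Hist2h2bb, and 0 higher, where 4.51% of all probe sets were called, 2.92% lower and 1.59% higher. At an unadjusted p under 0.05, 8 members were lower (9.86% of all probe sets) and 0 were higher (9.42% of all). The 95% intervals of single differences reached 0.12 to either side at the median and 0.44 at most, so most single differences were smaller than their interval. In the authors' deposited table, ratios of COUP-TFII siRNA to control lay below 1 for 67 of the 71 members, from 0.806 to 1.04. Genes of S phase and DNA replication, described last, lay lower in the same arrays, with 34 of 35 below 0 and a summed level of 10.93 to 10.97 in control against 10.76 to 10.82 in COUP-TFII siRNA arrays, and their part in the histone values was not tested. In whole cultures, fewer cells in S phase and less histone RNA per cell cannot be told apart.

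**Figure D1:**
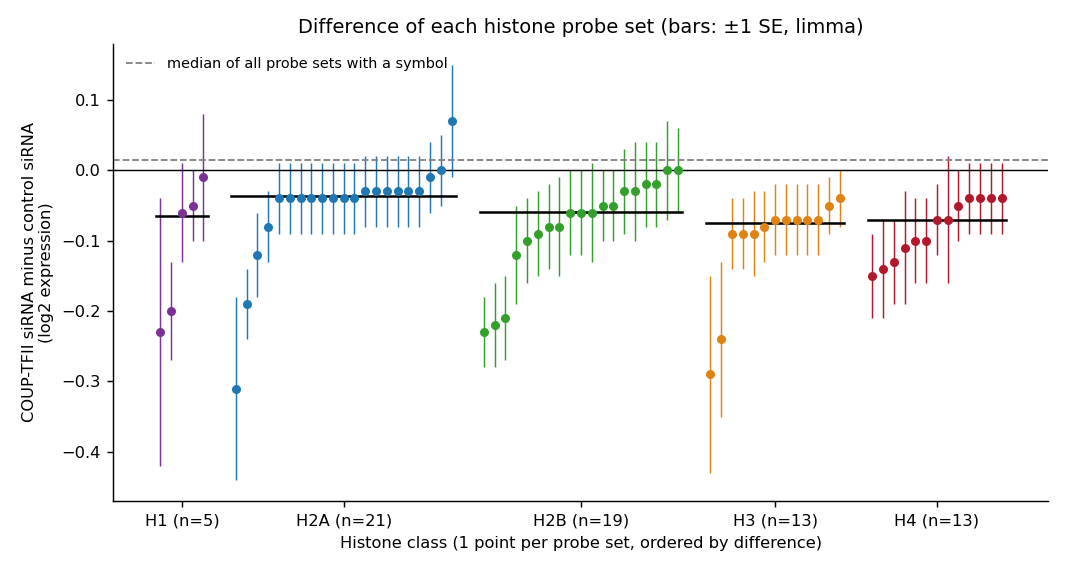
Difference between COUP-TFII siRNA and control siRNA (log2 expression) for each of the 71 histone probe sets, grouped by class along the horizontal axis; bars are 1 SE of the limma fit (3 arrays a group), black lines are class medians and the dashed line is the median of all probe sets with a symbol. The class medians lie between -0.075 and -0.037, and 69 of 71 points lie below 0.

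The shift was of a size with the differences between replicates (SD of the per-array median 0.042). Each member was set relative to its mean over the 6 arrays, and the median of these deviations was taken per array. It was -0.003, 0.015 and 0.083 in control replicates 1, 2 and 3 and -0.045, -0.054 and 0.015 in COUP-TFII siRNA replicates 1, 2 and 3. COUP-TFII siRNA replicate 3 was thus no lower than control replicates 1 and 2, and control replicate 3 stood highest. The same median over all probe sets stayed between -0.022 and 0.009 on the 6 arrays. Without control replicate 3 the median difference of the members was -0.027, and 63 of 71 lay below 0. With every array centred on its own median it was -0.089, and the per-array medians of the 2 groups no longer overlapped, at 0.006 to 0.099 against -0.069 to -0.001. With quantile and cyclic loess normalization it was -0.052 and -0.060, and the per-array medians of the groups still overlapped in both.

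**Figure D2:**
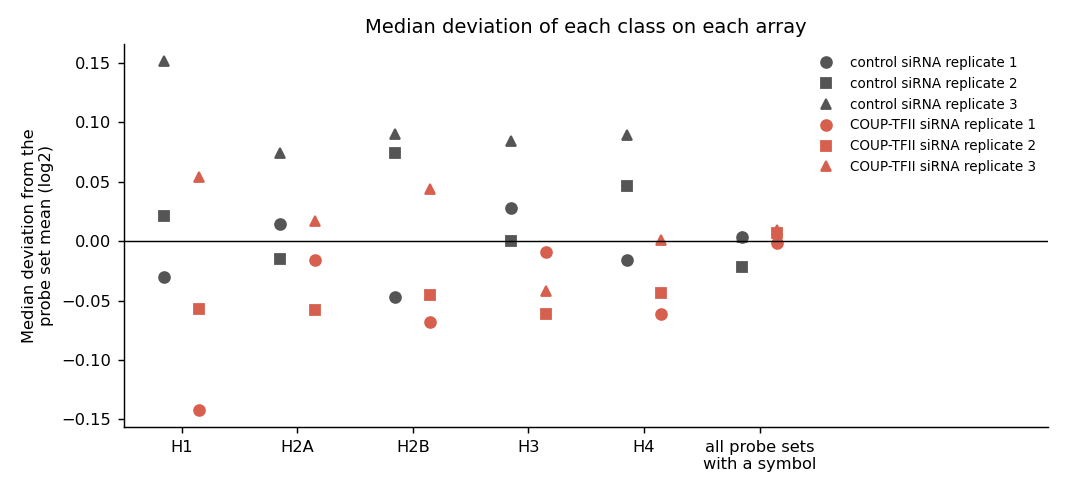
Median deviation from the probe set mean (log2, vertical axis) of each histone class and of all probe sets with a symbol, for each array; grey symbols are control siRNA and red symbols COUP-TFII siRNA, with 1 shape per replicate number. For H3 the 3 COUP-TFII siRNA arrays lie below the 3 control arrays, while in H1, H2A, H2B and H4 the groups overlap.

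Class by class, the median difference was -0.065 for H1, -0.037 for H2A, -0.059 for H2B, -0.075 for H3 and -0.071 for H4. The SD of the per-array class median between replicates was 0.036 for H3, 0.042 for H2A, 0.044 for H4, 0.067 for H2B and 0.096 for H1, and differences between classes were not tested. All 5 H1, 13 H3 and 13 H4 sets lay below 0, as did 20 of 21 H2A and 18 of 19 H2B sets. Among the 5 classes, H3 was the one whose per-array medians did not overlap between groups, at 0.028, 0.000 and 0.084 in control and -0.009, -0.061 and -0.042 in COUP-TFII siRNA arrays. The gap between the nearest arrays was small, and it depended on scaling. With median centring H2A and H4 were separated as well (H2A at 0.005 to 0.090 against -0.073 to 0.001, H4 at -0.007 to 0.105 against -0.076 to -0.015), with quantile normalization H3 alone was, and after cyclic loess normalization H3 overlapped and H4 did not.

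H3, which with H4 makes the central tetramer of the nucleosome, had 10 of 13 probe sets whose groups did not overlap, all lower in COUP-TFII siRNA arrays. Among all members this held for 16, among all probe sets tested for 12.2%, and the 13% of all probe sets that separated upward included 0 members. None of the 13 H3 sets passed the limma threshold, and the smallest adjusted p was 0.288. The count of separated H3 sets was 12 with median-centred arrays, 6 with quantile normalization and 2 with cyclic loess, where 17.5%, 14.1% and 14.4% of all probe sets were so separated. The 2 of 13 under cyclic loess are 15.4%, near that background. It is also no count of independent genes, since the 10 H3 sets with a mean of at least 13 kept within 0.05 of 1 common profile over the arrays. Their differences ran from -0.09 to -0.04. Hist1h3b, one of them, read 13.87, 13.83 and 13.92 in control and 13.83, 13.78 and 13.80 in COUP-TFII siRNA arrays, so that its lowest control and highest COUP-TFII siRNA values were both 13.83 when rounded.

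The H3 sets with lower signal varied more. The Hist1h3d set that is also assigned to Hist1h2ad read 8.57, 9.07 and 8.65 in control and 8.54, 8.49 and 8.53 in COUP-TFII siRNA arrays. Control replicate 2 stood apart there, and the groups did not overlap. Its difference was -0.24 (SE 0.11, limma adjusted p = 0.288), whereas the Hist1h3d set assigned to that gene alone differed by -0.09 (SE 0.05). One Hist2h3c2 set read 8.76, 8.85 and 8.44 against 8.65, 8.41 and 8.11, with overlap, a difference of -0.29 (SE 0.14). The other Hist2h3c2 set, shared with Hist2h3c1, differed by -0.05 (SE 0.04). The H3 member nearest to 0 was Hist2h3b, with 13.86, 13.84 and 13.87 in control and 13.83, 13.79 and 13.82 in COUP-TFII siRNA arrays, a difference of -0.04 (SE 0.04).

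H2B, the partner of H2A in the nucleosome, held the 1 called member. Hist2h2bb (H2bc18 in current nomenclature), whose octamer promoter is shown above, read 9.90, 9.95 and 9.94 in control and 9.71, 9.62 and 9.77 in COUP-TFII siRNA arrays. The 3 control values lay close together and above all COUP-TFII siRNA values. It fell by 0.23 (SE 0.05, limma adjusted p = 0.0499), to 85.4% of control. That p is at the threshold, and the call was lost without any 1 of the 6 arrays, with adjusted p from 0.0662 without COUP-TFII siRNA replicate 3 to 0.167 without COUP-TFII siRNA replicate 2. In the authors' deposited table its ratio was 0.864. The authors' deposited table of changed probe sets held 334 of all 35556 probe sets and 0 of the 71 members. That share is so small that the 0 says little about the members.

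Hist1h2bc read 12.15, 12.29 and 12.31 in control and 12.04, 11.99 and 12.08 in COUP-TFII siRNA arrays, again without overlap. The difference was -0.22 (SE 0.06, limma adjusted p = 0.0745). It passed without control replicate 1, the lowest control array (-0.26, adjusted p = 0.0491). Without any other 1 array it missed the threshold (limma adjusted p = 0.125 to 0.235). Hist2h2be, named after its values were seen, showed a similar difference of -0.21 (SE 0.06, adjusted p = 0.108), with 7.70, 7.69 and 7.70 in control and 7.34, 7.56 and 7.55 in COUP-TFII siRNA arrays. These 3 were the H2B sets whose groups did not overlap, 15.8% of 19, where 12.2% of all probe sets were lower without overlap. At the other end stood Hist1h2bg, with 9.21, 9.45 and 9.45 against 9.35, 9.36 and 9.42, a difference of 0.00 (SE 0.07) in which control replicate 1 was the lowest array. The other H2B differences lay between -0.12 and 0.00.

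In H2A, Hist1h2ae read 5.42, 5.48 and 5.50 in control and 5.30, 5.27 and 5.26 in COUP-TFII siRNA arrays. It was the 1 H2A set of 21 without overlap (4.76%, where 12.2% of all probe sets were lower without overlap). The difference was -0.19 (SE 0.05, limma adjusted p = 0.0558), just short of the threshold. Its values lay well below the array medians throughout. Hist1h2ab had the largest difference of all members, -0.31 (SE 0.13, adjusted p = 0.233), from 9.67, 10.15 and 9.89 to 9.45, 9.51 and 9.81. Its spread within each group was wide and the groups overlapped. Hist1h2ac lay above 0, with 5.64, 5.84 and 5.82 in control and 5.77, 5.73 and 6.01 in COUP-TFII siRNA arrays (difference 0.07, SE 0.08). The 15 H2A sets with a mean of at least 13 differed by -0.04 to -0.01 and stayed within 0.05 of a common profile.

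**Figure D3:**
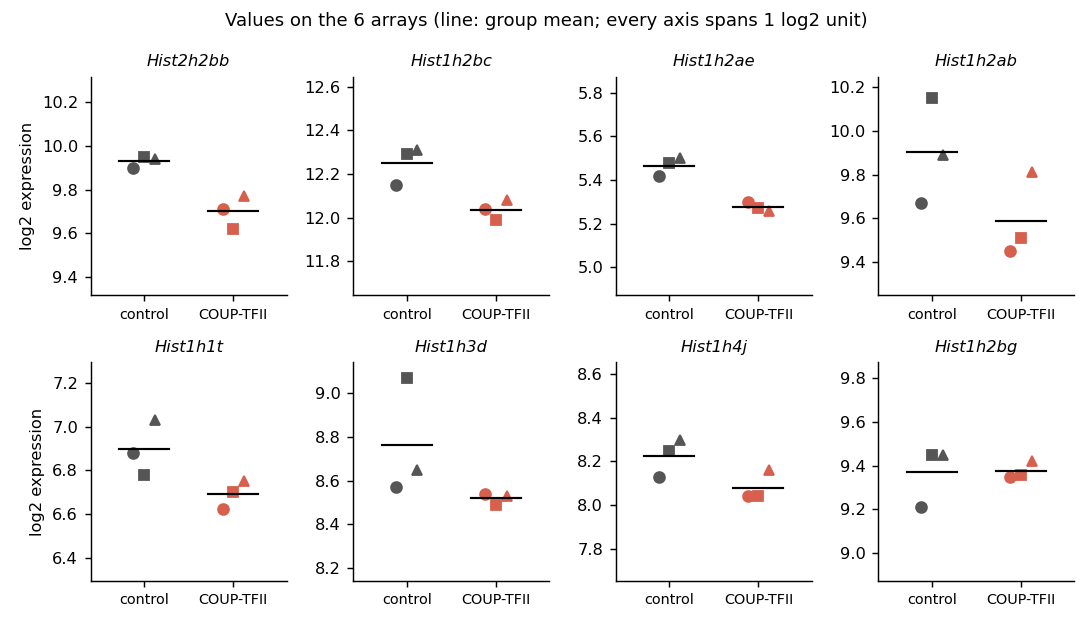
Values (log2 expression) of 8 histone probe sets on the 6 arrays; grey is control siRNA, red is COUP-TFII siRNA, shapes are replicate numbers 1 (circle), 2 (square) and 3 (triangle), and lines are group means. The groups are separate for Hist2h2bb, Hist1h2bc, Hist1h2ae, Hist1h1t and Hist1h3d, and overlap for Hist1h2ab, Hist1h4j and Hist1h2bg.

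Among H4 sets, Hist1h4j (a set shared with Hist1h4m) read 8.13, 8.25 and 8.30 in control and 8.04, 8.04 and 8.16 in COUP-TFII siRNA arrays. The groups overlapped through control replicate 1, and the difference was -0.15 (SE 0.06, limma adjusted p = 0.229). Hist2h4 read 12.19, 12.24 and 12.36 against 12.14, 12.11 and 12.16, which did not overlap, with a difference of -0.13 (SE 0.06, adjusted p = 0.258). It was the 1 H4 set of 13 so separated (7.69%, where 12.2% of all probe sets were lower without overlap). Hist1h4b was among the H4 sets nearest to 0, at 13.52, 13.52 and 13.60 in control and 13.51, 13.49 and 13.53 in COUP-TFII siRNA arrays (difference -0.04, SE 0.05). Hist4h4, the lone member on chromosome 6, differed by -0.10 (SE 0.06).

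The linker histone class was small, with differences from -0.23 to -0.01. Hist1h1d read 7.16, 7.95 and 7.93 in control and 7.26, 7.52 and 7.57 in COUP-TFII siRNA arrays, where control replicate 1 was the lowest of all arrays. Its difference was -0.23 (SE 0.19, limma adjusted p = 0.568), and without that array it was -0.49 and passed (adjusted p = 0.0372). Without control replicate 2 or 3 it was -0.10 or -0.11 (limma adjusted p = 0.864 or 0.846). It also missed the threshold without any 1 COUP-TFII siRNA array. Hist1h1a and Hist1h1b differed by -0.06 (SE 0.07) and -0.05 (SE 0.05). Hist1h1c, an H1 subtype that also appears outside S phase, was closest to 0 at -0.01 (SE 0.09), with 11.21, 11.43 and 11.47 in control and 11.22, 11.39 and 11.47 in COUP-TFII siRNA arrays.

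Testis variants, which replace canonical histones in germ cells, were measured by 3 sets. Hist1h1t, encoding H1t, read 6.88, 6.78 and 7.03 in control and 6.62, 6.70 and 6.75 in COUP-TFII siRNA arrays, below the array medians throughout. The groups did not overlap, and the difference was -0.20 (SE 0.07, limma adjusted p = 0.154). Hist1h2ba, encoding TH2B, differed by -0.03 (SE 0.07), with 7.36, 7.56 and 7.51 against 7.33, 7.47 and 7.55. Its divergent neighbour Hist1h2aa, encoding TH2A, differed by -0.08 (SE 0.05), with 8.80, 8.88 and 8.87 against 8.70, 8.84 and 8.76. Of these 3 none was called. The summed level of 6 germ cell markers ran from 6.14 to 6.27 in control and from 6.14 to 6.24 in COUP-TFII siRNA arrays. Of the 6, 5 were not called, and Ddx4, a germ cell RNA helicase, fell by 0.32 (SE 0.06, limma adjusted p = 0.0217), from 8.36, 8.45 and 8.42 to 8.07, 8.02 and 8.19. The part of such markers in the Hist1h1t values was not tested.

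Differences were narrower where the signal was high. The 36 members with a mean of at least 13, where the highest value of any probe set on any array was 14.3, differed by -0.09 to -0.01 with a median of -0.039. All 36 lay below 0, as did 50.8% of the 266 other probe sets in that range. The median of those others was 0.000, and their middle 90% ran from -0.09 to 0.06. The 36 members kept within 0.08 of a common profile over the arrays, so they are not 36 independent measurements. The 15 members with a mean under 9 had a median of -0.124 (other probe sets 0.025), the 14 between 9 and 12 one of -0.076 (others -0.008), and the 6 between 12 and 13 one of -0.090 (others -0.012). Most H2A and H3 sets fell in the highest range, with 15 of 21 and 10 of 13, against 5 of 19 H2B, 6 of 13 H4 and 0 of 5 H1 sets. Among those, median differences were -0.036 for H2A, -0.032 for H2B, -0.074 for H3 and -0.045 for H4. Whether the scanner or the summarisation narrows differences in that range was not tested.

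**Figure D4:**
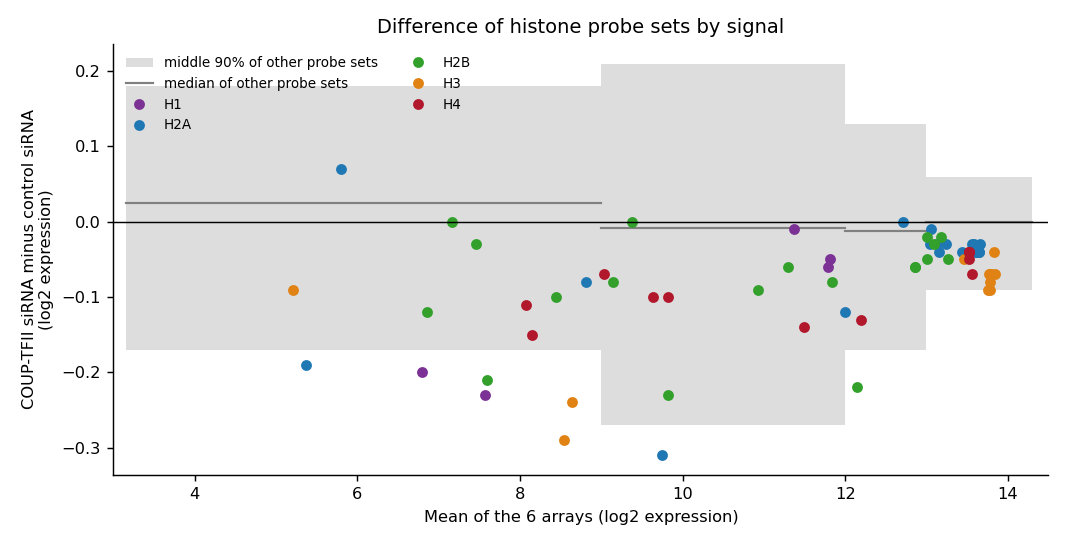
Difference between COUP-TFII siRNA and control siRNA (log2, vertical axis) of each histone probe set against its mean over the 6 arrays (log2, horizontal axis), coloured by class; the grey area spans the middle 90% of the other probe sets in 4 ranges of signal and the grey line is their median. The 36 sets with a mean of at least 13 lie between -0.09 and -0.01, and members with lower means reach from -0.31 to 0.07.

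The Hist1 and Hist2 clusters lie on different chromosomes, and both differed in the same direction. The median was -0.060 over 56 Hist1 sets, of which 54 lay below 0, and -0.040 over 11 Hist2 sets, all of which did. Groups did not overlap, with COUP-TFII siRNA lower, for 11 of 56 Hist1 and 5 of 11 Hist2 sets, against 12.2% of all probe sets. The 3 Hist3 sets differed by -0.12 (Hist3h2a), -0.10 (the pseudogene Hist3h2bb-ps) and 0.00 (Hist3h2ba), with SE 0.06 each.

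Head-to-head genes share a promoter region, but their probe sets do not all resolve the named gene. The sets of Hist1h2ao and Hist1h2bq are assigned to several genes, and the bright H2A sets kept near a common profile. Among genes with a RefSeq window, 9 places held an H2A and an H2B gene starting on opposite strands with overlapping windows, 164 to 281 bases apart. Windows were found for 58 of the 66 symbols. Neighbours of genes without one, Hist1h2bc and Hist2h2be among them, could not be compared, so the 9 places are not all such pairs. Hist1h2ae and Hist1h2bg start 180 bases apart around the octamer shown above, and differed by -0.19 (SE 0.05) and 0.00 (SE 0.07). Hist1h2an and Hist1h2bp leaned the other way, at -0.03 (SE 0.05) and -0.12 (SE 0.07). In the other 7 places both genes lay between -0.08 and 0.00. The H2A gene was the lower of the 2 in 4 of 9 places, and the difference between neighbours was not tested. The values of Hist1h2ae and Hist1h2bp lay below the array medians.

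**Figure D5:**
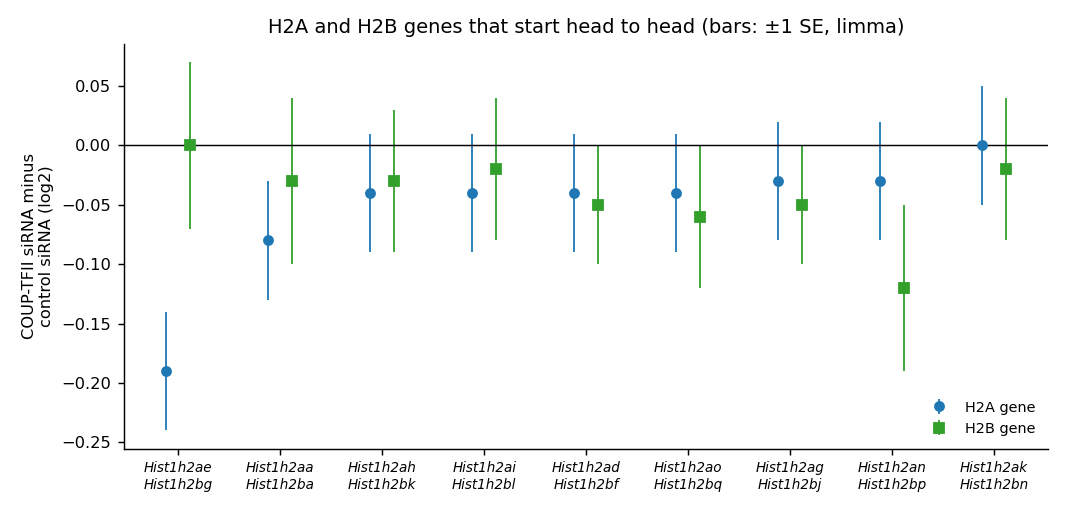
Difference between COUP-TFII siRNA and control siRNA (log2) of the H2A gene (blue circles) and the H2B gene (green squares). Drawn are the 9 head-to-head places found among genes with a RefSeq window, with bars of 1 SE from the limma fit. Where a gene has 2 probe sets the set with the smaller p is drawn. Hist1h2ae at -0.19 stands beside Hist1h2bg at 0.00, and the other genes lie between -0.12 and 0.00.

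Genes that transcribe and process histone mRNA were compared next. Of 24 measured genes of histone pre-mRNA processing and cluster transcription, 1 rose and 0 fell, and the median difference was 0.017. Over all probe sets 1.59% were called higher and 2.92% lower, so these counts do not set the list apart. The riser was Nfya, a subunit of the NF-Y complex that binds CCAAT, with 11.51, 11.52 and 11.58 in control and 11.80, 11.78 and 11.86 in COUP-TFII siRNA arrays. It rose by 0.28 (SE 0.05, limma adjusted p = 0.0168), but adjusted p was 0.0603, 0.0636 and 0.0632 without COUP-TFII siRNA replicate 1, 2 or 3. The other NF-Y genes Nfyb and Nfyc were not called (adjusted p = 0.790 and 0.735). Slbp, encoding the stem-loop binding protein, differed by -0.01 (SE 0.05) and Npat, the S phase co-activator of histone genes, by 0.03 (SE 0.06).

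Variant histones listed as replication-independent showed 1 fall and 0 rises among 16 measured genes, with a median of 0.016. Over all probe sets 2.92% were called lower and 1.59% higher. H2afv, encoding a form of H2A.Z, read 11.19, 11.09 and 11.27 in control and 10.79, 10.78 and 10.86 in COUP-TFII siRNA arrays. It fell by 0.37 (SE 0.06, limma adjusted p = 0.0120), though without COUP-TFII siRNA replicate 1 or 2 adjusted p was 0.0530 or 0.0661. Its paralog H2afz was not called (adjusted p = 0.707), nor were the H3.3 genes H3f3a and H3f3b (adjusted p = 0.410 and 0.935). Among 20 histone chaperones and factors acting on new histones, 0 were called in either direction, where 4.51% of all probe sets were. The smallest p there were those of Cabin1 at 0.20 (SE 0.05, adjusted p = 0.0554), Chaf1b, a subunit of the chromatin assembly factor, at -0.18 (SE 0.05, adjusted p = 0.0788), and Ubn1 at 0.17 (SE 0.05, adjusted p = 0.102).

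Of 35 measured genes of S phase and DNA replication 5 fell and 0 rose, where 2.92% of all probe sets were called lower, and 34 lay below 0 with a median of -0.141. That list was chosen with its shift already known. The fallers were the clamp loader gene Rfc4 at -0.33 (SE 0.05), the helicase genes Gins1 at -0.40 (SE 0.06) and Gins2 at -0.36 (SE 0.08), and Ccne1 and Cdk2. Cyclin E and CDK2 form the kinase that activates NPAT at the start of S phase. Ccne1 read 11.47, 11.46 and 11.43 in control and 11.19, 11.18 and 11.16 in COUP-TFII siRNA arrays and fell by 0.28 (SE 0.04, limma adjusted p = 0.0121). Cdk2 read 11.17, 11.09 and 11.10 against 10.91, 10.79 and 10.83 and fell by 0.28 (SE 0.05, adjusted p = 0.0236). Both groups were clearly apart for these genes. Without COUP-TFII siRNA replicate 2, 2 of the 5 remained past the threshold, and adjusted p was 0.0612 for Ccne1, 0.103 for Cdk2 and 0.130 for Gins2. Ccne1 also missed it without COUP-TFII siRNA replicate 1 or 3 (0.0501 and 0.0505). Cdk2 missed it without control replicate 1 or 3 (0.0646 and 0.0715) or COUP-TFII siRNA replicate 3 (0.0803), and Gins2 without control replicate 1 or 3 (0.0863 and 0.110) or COUP-TFII siRNA replicate 1 (0.114).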

How the data were processed

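RNA of 6 cultures was measured on Affymetrix arrays, which summarise short probes per probe set. The authors deposited normalized log2 values per probe set, made with Partek 7.0 per the submitters' processing notes. How probes were background-corrected, summarised and normalized is not given in the sources used here. The deposited tables also give a linear ratio and an unadjusted p-value per probe set from the authors' comparison. The range of the values identifies the log2 scale. Gene names and chromosomes come from the deposited annotation, which names no build, and Entrez IDs matched RefSeq (GRCm38.p6) for all 71 members.

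All 26836 probe sets with a symbol were fitted with limma 3.58.1 in R 4.3.3 (lmFit, eBayes), group as the only term, and called at a Benjamini-Hochberg adjusted p under 0.05, with no filter on low values. The fit was tested on simulated data. Differences are COUP-TFII siRNA minus control, and SE are moderated. The number of arrays limits the precision: an exact permutation test of 3 against 3 cannot give a 2-sided p under 0.1. The members, the lists and the rule for named genes (2 smallest p and the highest difference per class, called members, testis variants, and called or leading genes of each list) were chosen with earlier results of these data known. Each list gene was represented by its brightest probe set with exactly 1 gene. Same-numbered replicates correlated at 0.108, -0.048 and 0.172 in their deviations, so the numbers were not taken as pairs.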

Additional observations from a re-analysis of the deposited data

How the results depend on the processing

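The median differences of all members and of each class kept their sign in every alternative run and moved by less than the SD between replicates. For H1, H2A and H2B that SD (0.096, 0.042 and 0.067) was larger than the median difference (-0.065, -0.037 and -0.059). There, losing the whole difference would also have stayed within the SD. Leaving out 1 array gave -0.083 to -0.027 for all members, -0.116 to -0.020 for H1, -0.063 to -0.011 for H2A, -0.097 to -0.024 for H2B, -0.094 to -0.049 for H3 and -0.114 to -0.045 for H4. Without 1 array, 63 to 71 of 71 members lay below 0, and in the other alternatives that kept all members 68 to 70. The number of members called lower, 1 in the report, was 3 with median centring, cyclic loess normalization, array weights or brighter probe sets only (63 of 71 members tested), 2 with quantile normalization or an intensity trend in the prior, and 0 with a robust prior, with all probe sets fitted, and with the replicate block. Without 1 array it was 0 to 2, and 0 were called higher in any alternative. With the replicate block, the limma adjusted p for Hist2h2bb was 0.0896. The sample labels do not say whether same-numbered replicates are pairs. Hist1h2ae passed in 4 alternatives (adjusted p down to 0.0298) and Hist1h2bc in 6 (down to 0.0133). Over all probe sets, 306 to 2375 were called against 1209. S phase genes called lower, 5 in the report, were 11 with median centring or cyclic loess, 8 with quantile normalization, 14 with an intensity trend or brighter probe sets only, 9 with array weights, 3 with all probe sets fitted, and 2 to 5 without 1 array. Histone chaperones, 0 in the report, had 1 lower call with median centring, an intensity trend or brighter probe sets only, and 1 higher call with cyclic loess, an intensity trend or array weights and 2 with brighter probe sets only. The 1 rise in the processing list was 0 with all probe sets fitted and 0 to 1 without 1 array, as was the 1 fall among variants without 1 array. Where no construction of an alternative shows the cause, the cause was not tested.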
